A study of Mus musculus with 3 samples.

Results

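Gldc and Gnmt, both enzymes that remove glycine in liver, were compared between mouse liver RNA and Universal Mouse Reference RNA (UMRR) on 3 arrays with both dyes on each. The members were the probes whose single gene symbol in the platform annotation is Gldc or Gnmt. They are 4 of the 12336 probes with 1 symbol, and 2 of the 7984 genes those probes name. Gldc has 3 probes, which the annotation ties to 1 cDNA accession, and Gnmt has 1. Both genes were selected on their log2 ratios on these same 3 arrays, so those values are given as a description and with no test.

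Total RNA of mouse liver and UMRR, a pool that its maker prepares from mouse cell lines, were both bought, and cRNA was made from each in a single round of amplification. Liver carried Cy5 and UMRR carried Cy3 on each array, with no dye swap, so each ratio includes any dye bias. The strain, sex and age of the liver donors are not given in the labels, and the 3 arrays repeat 1 pair of purchased RNAs. The p-values given further on thus reflect technical spread between arrays of the same RNAs, and say nothing of variation among livers. The whole RNA was used, so more RNA per cell and more cells of a type cannot be told apart.

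Glycine is broken down in liver mainly in mitochondria, by the glycine cleavage system. Gldc is the decarboxylase that starts the reaction, Gcsh carries the intermediate on a lipoyl arm, Amt passes its carbon to folate, and Dld restores the lipoyl group. Gnmt works in the cytosol: it moves a methyl group from S-adenosylmethionine to glycine, which gives sarcosine and S-adenosylhomocysteine, and it is known as an abundant liver enzyme that disposes of surplus methyl groups. Sarcosine is turned back into glycine by oxidases such as Pipox.

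The promoters are shown because both genes stood far on the liver side of the comparison. Both members matched RefSeq's promoter table (GRCm38.p6), and the 250 bases before each start are printed 5′ to 3′ on the minus strand, with motif matches in capitals. The Gldc window lies at chr19:30175442-30175691 and the Gnmt window at chr17:46729166-46729415.
Gldc: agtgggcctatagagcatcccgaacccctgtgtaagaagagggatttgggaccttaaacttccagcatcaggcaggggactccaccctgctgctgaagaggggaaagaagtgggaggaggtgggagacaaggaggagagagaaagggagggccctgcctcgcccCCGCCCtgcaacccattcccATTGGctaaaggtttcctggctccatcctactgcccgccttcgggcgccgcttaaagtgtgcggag
Gnmt: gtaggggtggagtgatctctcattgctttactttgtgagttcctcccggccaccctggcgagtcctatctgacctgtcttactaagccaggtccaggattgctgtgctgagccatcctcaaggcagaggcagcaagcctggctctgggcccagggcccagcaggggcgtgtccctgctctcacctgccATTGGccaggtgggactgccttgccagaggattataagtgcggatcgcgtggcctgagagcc

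Both windows hold the CCAAT box on the minus strand of the gene, so it reads ATTGG above. It spans bases 66 to 62 before the start of Gldc and bases 62 to 58 before the start of Gnmt. A CCAAT box on either strand was found in 33.8% of all 32851 RefSeq windows of this length. The Gldc window also holds a GC box (GGGCGG, here as CCGCCC) at bases 86 to 81, a motif found in 32.7% of windows. Neither window holds TATAAA (12.4% of windows), the C/EBP motif TTGCNNCAA (1.74%), the HNF4 motif CAAAGTCCA (0.384%), or the longer full palindromes of HNF1 (0.00913%) and FXR (0.00609%). All motifs were searched on both strands, and none of those found overlapped another. The share of G and C was 59.6% in the Gldc window and 60.4% in that of Gnmt, against a median of 52.4% over all windows. These matches are descriptions of the letters only.

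The deposited values are log ratios whose base and direction are not stated. They were read as log2, and as liver over UMRR because all 5 measured genes of a list of hepatocyte secretory proteins were above 0 on each array (Apoc3, Vtn, Rbp4, Ambp and Fetub, with means from 3.13 to 5.17). Read as natural logs, every log2 value would be 1.44 times larger. An exact 0 was listed for 32.2%, 23.5% and 29.6% of probes on arrays 1, 2 and 3, and was read as no measured ratio. Probes with a ratio on all 3 arrays were averaged per gene, which gave 5520 genes. The array count limits the precision; arrays 2 and 3 were closer to each other (SD of their difference 0.21) than array 1 was to either (0.43 and 0.38).

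Gldc was measured by 1 of its 3 probes on all arrays. Probe 16527 gave log2 ratios of 5.59, 5.34 and 5.08 on arrays 1, 2 and 3, that is 48.2-, 40.5- and 33.7-fold higher in liver. Array 1 was the highest and array 3 the lowest, and all were far above 0. The mean was 5.33 ± 0.26 (SD, n = 3 arrays), or 40.4-fold.

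Probe 11844 of Gldc gave 5.13 on array 1 and 5.20 on array 2, and an exact 0 on array 3. Where it was measured it lay close to the first probe, which was higher by 0.47 on array 1 and by 0.14 on array 2. Its mean over 2 arrays was 5.16, or 35.8-fold. Probe 5758 was listed at exact 0 on every array, so it gives no ratio. Gldc was thus measured by 2 of 3 probes on arrays 1 and 2 and by 1 of 3 on array 3. With each exact 0 taken as a ratio of 1 in place of a missing value, the Gldc mean fell to 2.93.

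Gnmt was measured by its only probe, 4740, on all 3 arrays, with no exact 0. The log2 ratios were 4.67, 5.10 and 5.16 on arrays 1, 2 and 3, or 25.4-, 34.4- and 35.8-fold. Here array 1 was the lowest, and arrays 2 and 3 were close together. The mean was 4.98 ± 0.27 (SD, n = 3), or 31.5-fold. A second probe for this gene was not analysed here, so the Gnmt value has no check within an array.

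**Figure D1:**
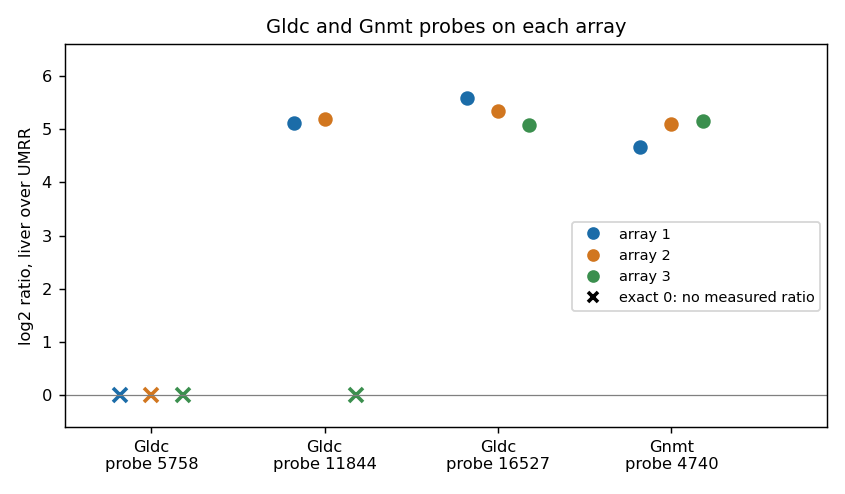
Log2 ratio of liver over UMRR (y axis) for the 3 Gldc probes and the Gnmt probe (x axis) on each array; points are measured ratios and crosses are exact zeros. All measured points lie between 4.67 and 5.59, while probe 5758 has no ratio and probe 11844 has none on array 3.

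Gnmt minus Gldc was -0.92 on array 1, -0.23 on array 2 and 0.087 on array 3. The order of the 2 genes thus turned on array 3, and the mean difference of -0.36 was smaller than its SD between arrays (0.52). The spread of each gene was above that of most genes: the SD was smaller in 71.9% of genes for Gldc and 74.7% for Gnmt, and the median SD was 0.17. Among the 54 genes with a mean of at least 4 (0.978% of the 5520), the median SD was 0.26, and 25 had a smaller SD than Gldc and 30 a smaller one than Gnmt.

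These 54 genes were mostly lower on array 1 than on the others. For 46 of them, array 1 was below the mean of arrays 2 and 3, with a median difference of -0.32. Gnmt went with them, at -0.47. Gldc was among the 8 that were higher on array 1, at 0.38, and only Hnmt, the histamine methyltransferase, had a larger excess (0.45). This Gldc value rests on probe 16527 alone. Probe 11844 gave 5.13 on array 1 and 5.20 on array 2, so it was not higher on array 1. Hnmt was picked out after its values were seen, although the rule for like genes also names it.

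By mean ratio Gldc stood at rank 8 and Gnmt at rank 15 of 5520 genes, so 0.145% and 0.272% of genes were at or above them. A rank here orders ratios to UMRR and not RNA levels in liver. On arrays 1, 2 and 3 the rank of Gldc was 3, 10 and 15, and that of Gnmt was 20, 17 and 13. With probes measured on at least 2 arrays let in, the ranks were 11 and 16 of 6329 genes. Places within this top group therefore moved with the array.

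**Figure D2:**
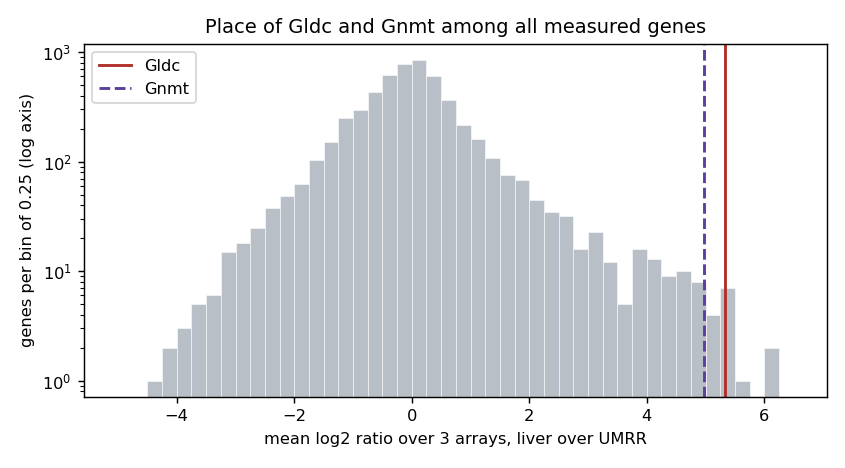
Histogram of the mean log2 ratio of liver over UMRR for 5520 genes (x axis, bins of 0.25), with the number of genes on a log axis. The solid line marks Gldc at 5.33 and the dashed line Gnmt at 4.98, both in the thin right tail that holds 54 genes at 4 or more.

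The genes next to Gldc in this order were Sult1d1, a sulfotransferase, above it at 5.38 ± 0.14, and F11, coagulation factor XI, below it at 5.33 ± 0.17 (SD, n = 3). Next to Gnmt stood Smlr1 above at 5.06 ± 0.19 and Dsc2, a desmosomal cadherin, below at 4.94 ± 0.35. The gaps to the neighbours were at most 0.085, under the spread between arrays, so neither place is distinct from those beside it.

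Likeness was measured as the root mean square difference of the log2 ratios over the 3 arrays. The 5 genes nearest to Gldc were Hnmt (0.18), Mtarc1, a mitochondrial reductase (0.21), F11 (0.25), Sult1d1 (0.31) and C8g, a subunit of complement C8 (0.35). Hnmt, nearest of all, stood at 5.46, 5.07 and 4.96 on arrays 1, 2 and 3, highest on array 1 as Gldc probe 16527 was. The 5 nearest to Gnmt were Hba-a1, an alpha globin (0.072), Smlr1 (0.12), Ctrb1, the acinar chymotrypsinogen (0.12), Papss2, which makes the sulfate donor of sulfotransferases (0.16), and Ogfr, an opioid growth factor receptor (0.19). Hba-a1 stood at 4.56, 5.06 and 5.21, lowest on array 1 as Gnmt was. Over all genes the median distance was 5.37 from Gldc and 5.01 from Gnmt. The 3 arrays repeat the same RNA pair, so this likeness is mostly one of size, and blood and pancreas genes are among the nearest to Gnmt.

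The exact zeros of Gldc were set beside those of the whole array. Of the 145 probes whose mean on arrays 1 and 2 was 4 or more, 24 (16.6%) had an exact 0 on array 3, and probe 11844 is 1 of the 24. Of the 7739 probes with a mean between -1 and 1, the share was 5.21%. The same count for an exact 0 on array 1 gave 6 of 143 probes (4.20%) at 4 or more, and on array 2 it gave 2 of 120 (1.67%). Loss on array 3 was thus more frequent among probes with high liver ratios, while arrays 1 and 2 did not show a higher share there than between -1 and 1 (9.90% and 3.18%). A probe with no ratio beside a fully measured probe of the same gene was common: of 488 genes with 3 probes, 163 (33.4%) had both kinds, as Gldc does, and 133 had all 3 probes measured on all arrays. These shares are counts over probes with no test, and what gave the zeros was not tested.

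**Figure D3:**
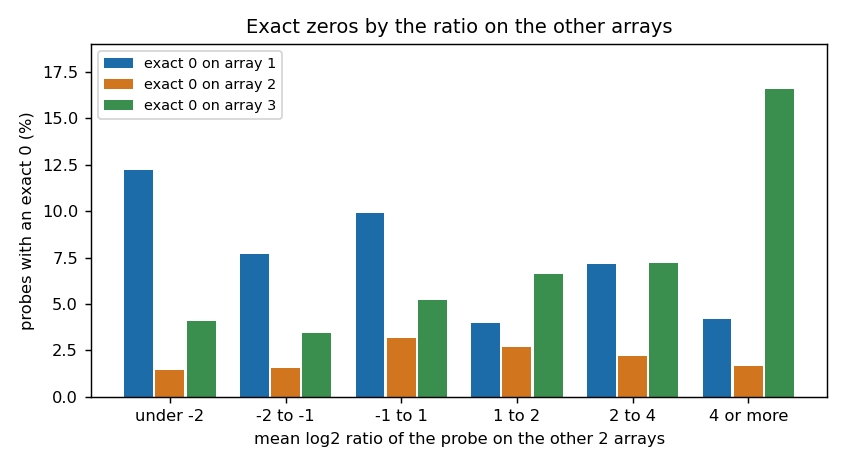
Share of probes with an exact 0 on 1 array (y axis, %) by the mean log2 ratio of the same probe on the other 2 arrays (x axis), with 1 bar for each array. The tallest bar, 16.6%, belongs to array 3 among probes at 4 or more on arrays 1 and 2, the class of Gldc probe 11844.

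The other genes of the glycine cleavage system were higher in liver too, but far less so. With limma, after Benjamini-Hochberg adjustment over 5520 genes, 3535 (64.0%) passed at an adjusted p of 0.05, 1663 higher in liver (30.1%) and 1872 lower (33.9%), and the median of all genes was -0.028. Both measured partners of Gldc passed. Gcsh, the lipoyl carrier protein, stood at 1.12, 1.36 and 1.50 on the arrays, a mean of 1.33 ± 0.19 (SD, n = 3) or 2.51-fold (adjusted p = 0.000107). Its other probe gave 1.00 and 1.37 on arrays 1 and 2 and an exact 0 on array 3, the same pattern of measured arrays as Gldc probe 11844.

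Dld, the lipoamide dehydrogenase that this system shares with other mitochondrial complexes, stood at 0.44, 0.21 and 0.31, a mean of 0.32 ± 0.11 or 1.25-fold (adjusted p = 0.0266). The call of Dld did not hold without array 2 (adjusted p = 0.0770), without moderation of the variance (0.0767) and after block medians were subtracted (0.136). A second Dld probe gave 1.00 and 0.52 on arrays 1 and 2 and an exact 0 on array 3. Amt was not analysed here. Gldc exceeded Gcsh by 4.47, 3.98 and 3.58 on the log2 scale and Dld by 5.15, 5.12 and 4.77, gaps that the choice of Gldc by its ratio enters.

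Of the other enzymes that make or use glycine, 7 were measured on all arrays, 6 higher in liver and 1 lower, with a median of 0.78. Over all 5520 genes, 30.1% were higher and 33.9% lower. Baat, which joins bile acids to glycine or taurine, had the highest ratio of the 7 at 6.08 ± 0.083 (SD, n = 3, adjusted p = 1.76e-06). Shmt1, the cytosolic hydroxymethyltransferase that interconverts serine and glycine, stood at 2.31, 2.64 and 2.75, or 5.93-fold. Its mitochondrial counterpart Shmt2 stood at 0.54, 0.90 and 0.90, or 1.72-fold (adjusted p = 0.00127, and 0.0557 without moderation of the variance).

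Gcat, which takes part in threonine breakdown to glycine, was higher at 1.82 ± 0.16 (SD, n = 3), or 3.54-fold, on the mean of 2 probes. Another Gcat probe was measured on array 3 alone (1.89), and the remaining 2 probes gave an exact 0 throughout. Gatm, which uses glycine for creatine synthesis, was the lower gene, at -0.58 ± 0.028 (adjusted p = 0.00167) on the mean of 4 probes. Lias and Lipt2, which act in lipoyl attachment and are named after their values were seen, were higher by 0.56 and 0.37. Without array 3 a second Lias probe entered and Lias stood at -0.011 (adjusted p = 0.963), and Lipt2 did not pass without array 2 (0.0832) or array 3 (0.114).

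Of genes of serine synthesis and breakdown, 2 were measured and 0 passed the limma test, against 64.0% of all genes. An unadjusted p under 0.05 was found for 1 of the 2. Srr, the serine racemase, stood at -0.19 ± 0.060 (adjusted p = 0.108). Sptlc2, a subunit of the palmitoyltransferase that uses serine for sphingolipids, stood at 0.067, 1.07 and 0.35, with array 2 far above the others (adjusted p = 0.0630), and it passed without array 1 (0.00967).

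Of the glycine carriers, 3 were measured on all arrays, 1 higher, 1 lower and 1 not past the test. These counts are near the shares over all genes (30.1% higher, 33.9% lower). Slc36a1, a proton-coupled carrier of small amino acids, was higher at 1.71 ± 0.19 (SD, n = 3, adjusted p = 3.80e-05). Slc38a2, a sodium-coupled carrier of neutral amino acids, was lower at -0.61 ± 0.045 (adjusted p = 0.00146). Slc6a9, the glycine transporter GlyT1, stood at -0.054, 0.70 and 0.48 and did not pass (adjusted p = 0.0773), but did without array 1 (0.00161). Slc38a4, a carrier known from liver, gave 5.69 on array 2 and an exact 0 on the other arrays, and Slc7a10 gave 0.19 and 0.12 on arrays 1 and 3.

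**Figure D4:**
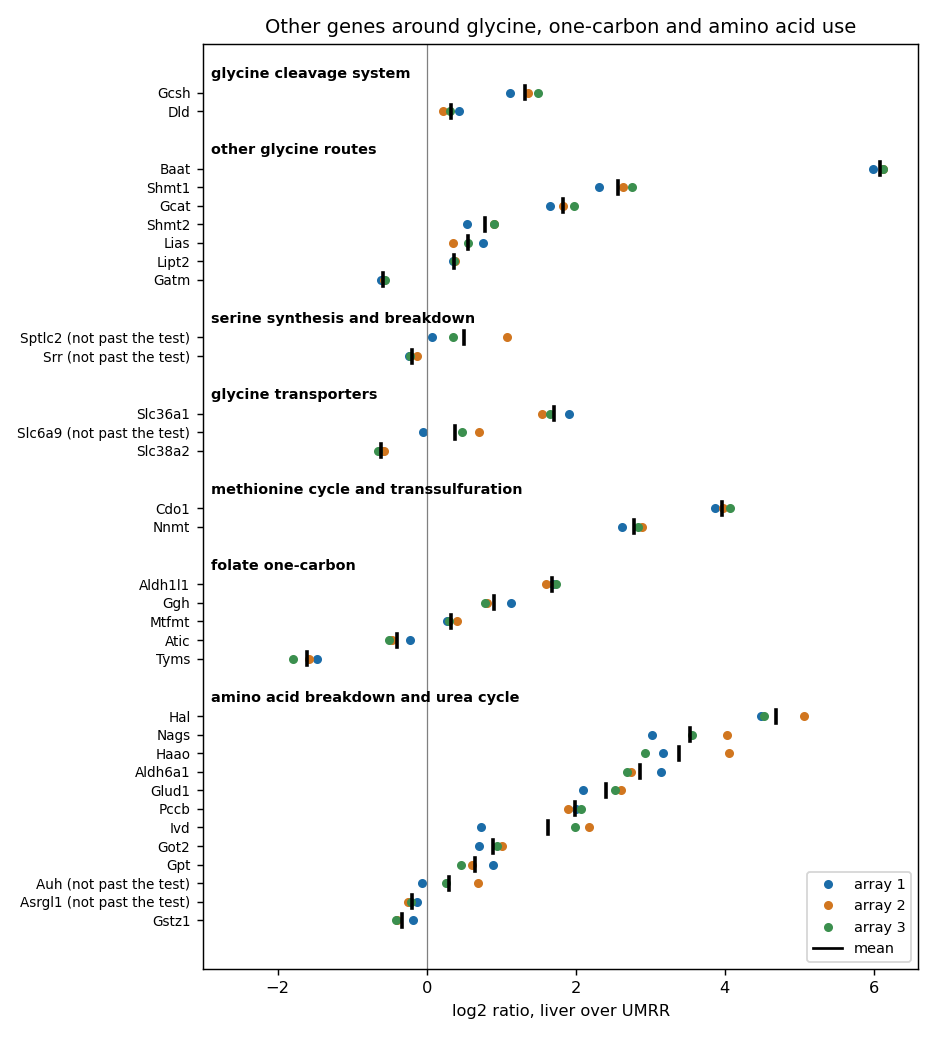
Log2 ratio of liver over UMRR (x axis) of each gene measured on all arrays in 7 lists around glycine, folate, methionine and amino acid use (y axis); points are arrays and the bar is their mean. Gcsh and Dld, the partners of Gldc, lie at 1.33 and 0.32, while Baat at 6.08 lies above Gldc (5.33) and Gnmt (4.98) and Hal at 4.69 lies below both.

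Around Gnmt, the list of the methionine cycle and transsulfuration was thinly covered. This list takes in enzymes that use S-adenosylmethionine or handle cysteine, as the measured genes Nnmt and Cdo1 do. Of 8 other genes of the list with a probe, 2 were measured on all arrays, 3 on some arrays, and 3 were at exact 0 on all. Both fully measured genes were higher in liver, against 30.1% of all 5520 genes. Cdo1, the cysteine dioxygenase, stood at 3.86, 3.97 and 4.07 on the arrays, or 15.7-fold (adjusted p = 2.16e-06). Nnmt, another methyltransferase that draws on S-adenosylmethionine, with nicotinamide as acceptor, stood at 2.62, 2.89 and 2.83, or 6.87-fold (adjusted p = 5.44e-06).

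The partly measured genes of this list were Ahcy, Cth and Mtap, and those at exact 0 on all arrays were Mat2b, a subunit of an enzyme that makes S-adenosylmethionine, Adk and Ethe1. These genes and Pipox and Alas2, the partly measured genes of other glycine routes, are named after their values were seen. Ahcy, which splits the S-adenosylhomocysteine that Gnmt makes, gave 2.71 on array 1 and an exact 0 on arrays 2 and 3. Pipox, which oxidises sarcosine, the other product of Gnmt, gave 5.36 on array 2 and an exact 0 on arrays 1 and 3. Cth, the lyase that makes cysteine from cystathionine, gave 2.84 and 2.89 on arrays 1 and 3. Mtap, which salvages methionine, was on the UMRR side at -1.61 on array 2, with an exact 0 on the other arrays. Alas2, which uses glycine for heme, gave 0.53 on array 2 alone. These genes entered no test, and the values of Pipox, Ahcy, Mtap and Alas2 have no replicate. Probes measured on array 2 alone numbered 978, of which 14 were at 4 or more, as Pipox and Slc38a4 were, against 1 of 274 for array 1 and 2 of 252 for array 3.

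The list of folate one-carbon genes is wider than the steps that take up the carbon of glycine cleavage. Of 5 measured, 3 were higher in liver and 2 lower, with a median of 0.33. Over all 5520 genes, 30.1% were higher and 33.9% lower, so calls in both directions are general here. Aldh1l1, a folate dehydrogenase, was higher at 1.68 ± 0.065 (SD, n = 3, adjusted p = 2.19e-05), and Ggh, which trims folate polyglutamates, at 0.91 ± 0.19. Tyms, the thymidylate synthase of DNA synthesis, was lower at -1.61 ± 0.16 (adjusted p = 4.02e-05).

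Mtfmt, the formyltransferase of mitochondrial initiator tRNA, was higher at 0.33 ± 0.071, a call that did not hold without array 2 (adjusted p = 0.147), without array 3 (0.139) and after block medians were subtracted (0.223). Atic, of purine synthesis, was lower at -0.40 ± 0.15, did not pass without array 2 (adjusted p = 0.0948), and its probes disagreed: the 2 measured throughout had means of 0.069 and -0.87, and another, at 1.87 on arrays 1 and 2, turned its sign without array 3 (0.39).

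The other 5 folate genes with a probe were measured on some arrays only, entered no test and are named after their values were seen. Mthfd1l and Mthfd2, mitochondrial enzymes that process the folate-bound carbon, were on the UMRR side: Mthfd1l gave -2.15 and -1.86 on arrays 2 and 3, and Mthfd2 gave -2.83 on array 2. Ftcd, which links histidine breakdown to folate, gave 4.48 and 3.92 on arrays 2 and 3. Slc19a1, a folate carrier, gave 0.46 on array 1, and Folr1, a folate receptor, gave -0.31 and 0.26 on arrays 1 and 2.

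Other enzymes that break down amino acids or serve the urea cycle were mostly higher in liver. That held for 9 of 12 measured genes, against 1 lower and 2 not past the test (median 1.81). The shares over all 5520 genes were 30.1% higher and 33.9% lower. Hal, which starts histidine breakdown, came nearest to Gldc and Gnmt, at 4.49, 5.06 and 4.53 (mean 4.69 ± 0.32, SD, n = 3, adjusted p = 3.43e-06), and it alone of the 12 reached a mean of 4. Nags, which makes the activator of the urea cycle, stood at 3.54 ± 0.50 and Haao, of tryptophan breakdown, at 3.38 ± 0.59. Aldh6a1, of valine breakdown, stood at 2.86 ± 0.25. This list has 19 genes with a probe, of which 2 were measured on some arrays and 5 were at exact 0 on all. The partly measured genes, Pcbd1 and Prodh2, entered no test and are named after their values were seen. Pcbd1 gave 4.28 on array 2 alone. A Prodh2 probe gave 4.72 on array 2 alone, and another gave 1.59 and 2.35 on arrays 1 and 2.

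The lower gene was Gstz1, of tyrosine breakdown, at -0.33 ± 0.13 (adjusted p = 0.0256), and its probes disagreed as well. A second Gstz1 probe gave 2.87 and 3.12 on arrays 1 and 3, so without array 2 the gene stood at 1.35, and without array 3 it did not pass (adjusted p = 0.208). Auh, of leucine breakdown, did not pass at 0.29 ± 0.38, nor did Asrgl1, an asparaginase, at -0.20 ± 0.055 (adjusted p = 0.137 and 0.105). Without array 1 both passed, with adjusted p-values of 0.0117 and 0.0445.

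Markers of other cell types were read beside Gldc and Gnmt. Of 16 pancreatic acinar genes with a probe, 15 were measured on all arrays and Cuzd1 was at exact 0 on all. Of the 15, 14 were higher in liver, against 30.1% of all genes, and Cel, a lipase, did not pass (0.22, adjusted p = 0.0821). The median of the acinar genes was 4.30, and 8 of the 15 had a mean of at least 4, against 0.978% of all genes. Reg2 at 5.55 and Try4 at 5.38 lay above both Gldc and Gnmt. The summed log2 ratio of the 15 acinar genes was 50.8, 56.4 and 55.2 on arrays 1, 2 and 3. The trypsin and chymotrypsin genes are close relatives, so their single values are uncertain. Gnmt is known from the exocrine pancreas as well as from liver. The part of pancreatic RNA in the ratios of Gnmt and Gldc was not tested.

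The summed log2 ratio of the 5 hepatocyte genes was 20.0, 22.1 and 22.3 on arrays 1, 2 and 3. This sum, the acinar sum and Gnmt were all lowest on array 1. Of the 54 genes with a mean of at least 4, 46 were lower on array 1 than the mean of arrays 2 and 3, and 8 were higher. Low values on array 1 are thus not particular to Gnmt or these lists. Gldc was highest on array 1 by probe 16527 but not by probe 11844. Of the hepatocyte list, 3 genes were measured on some arrays and Kng1 was at exact 0 on all. Gldc is also known from brain. Of 5 neural genes with a probe, 3 were measured on all arrays. All 3 were higher in liver, by 0.28 to 0.67 on the log2 scale, against 30.1% of all genes. Nefm was at exact 0 on all arrays, and Snap25 gave -0.032 on array 2 and an exact 0 on arrays 1 and 3. The summed log2 ratio of the 3 genes measured on all arrays was 0.93, 1.62 and 1.41 on arrays 1, 2 and 3. Slc1a2 alone of them was lowest on array 1 (0.18, 1.00 and 0.84). Mbp was highest on array 1 (0.47, 0.32 and 0.30), and Syt1 was nearly level (0.28, 0.30 and 0.27). None of the 3 (Mbp, Syt1 and Slc1a2) passed without array 2 (adjusted p = 0.0739, 0.164 and 0.0655) or without array 3 (0.0938, 0.201 and 0.0578). Markers of kidney tubule were not analysed here.

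**Figure D5:**
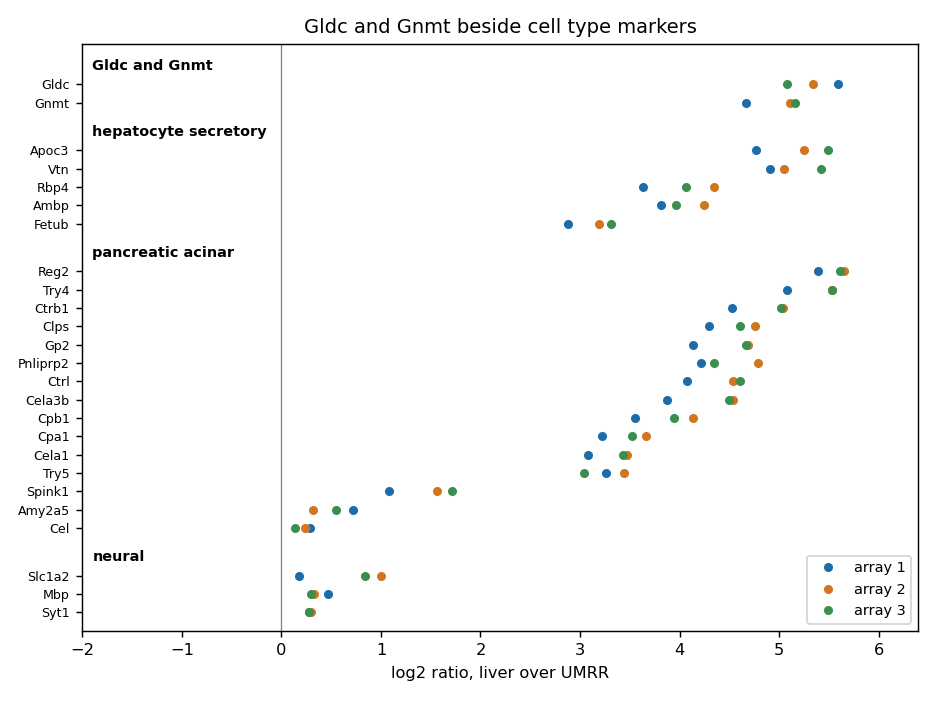
Log2 ratio of liver over UMRR (x axis) of Gldc and Gnmt and of each measured marker of hepatocytes, pancreatic acinar cells and neural cells (y axis), with 1 point for each array. Acinar markers have means from 0.22 to 5.55, and 8 of 15 lie at 4 or more, towards Gldc (5.33) and Gnmt (4.98), while the neural markers stay below 1.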

How the data were processed

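The deposited table holds 1 log2 ratio per probe and array, read as the authors processed it. The sources used here do not give the log base, scanner, background or dye steps. Base 2 was assumed. Probe names came from the platform annotation, in which 12336 probes carried 1 symbol, 61 carried several and 3876 were unnamed here. By gene identifier, 12228 of the named probes were found in RefSeq's gene table (GRCm38.p6, for names only). Exact zeros were left out, and the 7730 named probes measured on all 3 arrays were averaged per gene. The test was limma's moderated test (lmFit and eBayes, limma 3.58.1, R 4.3.3) of the mean log2 ratio against 0, two-sided. Benjamini-Hochberg adjustment was over all genes. The fit was also run on simulated data in which most genes had no difference, unlike here. That run checks the code and not the calls on these arrays. Promoter sequences are from RefSeq (GRCm38.p6).

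Named in the text are every probe of Gldc and Gnmt, genes of the small lists (glycine cleavage, serine, carriers), the 4 highest and 4 lowest called genes of the larger lists, those not called where fewer than 4, the neighbours in order and the 5 nearest genes. Exceptions are stated, and markers are named as well. The members and lists were chosen with earlier results of these data known. Alternatives covered centring, scaling, single arrays, exact zeros, probes, log base, variance and medians of blocks of 500 probe numbers.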

Additional observations from a re-analysis of the deposited data

How the results depend on the processing

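Gldc and Gnmt kept their direction in every alternative run. Leaving out 1 array gave 5.21 to 5.33 for Gldc and 4.89 to 5.13 for Gnmt. Read as natural logs the means were 7.70 and 7.18, by construction. With exact zeros kept as ratios of 1 Gldc was 2.93, since probe 5758 and array 3 of probe 11844 then enter at 0, while Gnmt stayed at 4.98. Leaving out 1 array gave 2838 to 4184 genes past the test, and no moderation of the variance gave 2087 against 3535. The partners of Gldc past the test were 1 to 2 without 1 array, and 1 with zeros kept, with no moderation and after block medians were subtracted, Dld being lost each time. The counts without 1 array were 0 to 1 for serine, 3 to 7 for folate, 5 to 7 for other glycine routes, 2 to 3 for methionine and for carriers, and 10 to 12 for amino acid breakdown.

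Without 1 array Gstz1 ranged from -0.41 to 1.35, Atic from -0.49 to 0.39, and Lias, negative without array 3, from -0.011 to 0.66. The sign of Gstz1 turned without array 2, with probes on at least 2 arrays (0.77) and with zeros kept (0.55). That of Atic turned without array 3, with probes on at least 2 arrays (0.093) and with zeros kept (0.11), and that of Asrgl1 with zeros kept (0.061). In each case probes that had been left out entered the mean. Of 726 values of 66 other genes (those of the lists and those near Gldc or Gnmt) under alternatives, 681 kept direction and call, 30 lost the call, 7 gained it and 8 turned sign. No shift of the median of all genes exceeded 0.016. No paired analysis was possible because there is 1 group of arrays. Signal over background was not used here, so dim probes could not be set apart.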
